A study of Mus musculus with 401 samples.

Results

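Single oocytes of the second set of samples were compared between mice of 2 and 14 months. This comparison held 40 of the 401 libraries of the series, chosen by cell type, age and set from the labels, with 24 oocytes of 5 mice at 2 months and 16 oocytes of 5 mice at 14 months. All mice were B6D2F1 females, the first-generation hybrid of C57BL/6 and DBA/2, and were fed ad libitum. All of them were hyperovulated, with either equine chorionic gonadotropin (eCG) or CARD HyperOva, and neither the labels nor the methods say which mouse received which agent. Ovaries were taken 48 h later and oocytes at the germinal vesicle (GV) stage were freed from the cumulus cells of fully grown follicles. The study asked what changes in the oocyte transcriptome late in reproductive life, and it was run by RamDA-seq, which copies total RNA along whole transcripts. Each library was 1 oocyte, so the mouse was the replicate, with 2 to 8 oocytes per mouse, and all 40 libraries entered the fits. At each age, 3 mice stood on plate B1 and 2 on plate B2. The wells of all 14 month mice lay in column 12, whereas those of the 2 month mice lay in column 1 (2mo1 and 2mo2) or 11 (2mo34, 2mo35 and 2mo36), so age and well column cannot be told apart.

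A GV oocyte of a fully grown follicle is arrested in the prophase of meiosis and makes almost no new RNA. Its transcripts were stored during growth, and they are translated or removed during maturation and early cleavage. Proteins folded in the cytosol depend on Hsp70 chaperones and their J-domain partners, while secreted and membrane proteins, such as those of the zona pellucida, are folded in the endoplasmic reticulum (ER) by a separate set of chaperones.

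Total counts ranged from 1719013 to 2433019 per oocyte at 2 months (median 2118731) and from 1985560 to 2583456 at 14 months (median 2270752), and no pair of libraries was identical. All 15 oocyte markers were detected at both ages, with a summed level of 20794 to 30332 counts per 1000000 counts (CPM) at 2 months and 20109 to 30067 at 14 months, against a median of 19.36 in the cumulus libraries. The list of 14 cumulus and granulosa cell markers summed to 74.9 to 212 CPM (median 106) in oocytes at 2 months and to 103 to 272 CPM (median 150) at 14 months, or 0.539% and 0.764% of the median cumulus library. Of this list, Slc38a3 was at 0 in all oocytes at 14 months and no other member was at 0 in all oocytes of an age. Per mouse, the summed cumulus level was 89.9, 86.2, 108, 123 and 144 CPM at 2 months and 197, 168, 151, 149 and 142 CPM at 14 months. Only the lowest mouse at 14 months lay below the highest at 2 months, and the difference of 51.2 CPM had p = 0.0159 (two-sided exact permutation test over mice, Benjamini-Hochberg adjusted p = 0.0476 over 6 measures). On plate B1 the 3 mice of each age lay apart, at 86.2 to 108 and 151 to 197 CPM, whereas on plate B2 they overlapped, at 123 and 144 against 149 and 142 CPM. Of 11 blood cell markers, 7 were at 0 in all oocytes at 2 months and 4 at 14 months, with sums of 4.6 to 14.1 and 5.85 to 17.8 CPM, and the 8 theca and stroma markers summed to at most 5.02 and 4.5 CPM, with Col1a2, Col3a1 and Lum at 0.

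Between 2 and 14 months, 72 of 22659 genes were differentially expressed (0.318%), of which 32 were higher (0.141%) and 40 lower (0.177%) in oocytes of the older mice. Genes were called at an adjusted p under 0.05 by edgeR's quasi-likelihood test on counts summed per mouse, with the plate as a covariate. Among genes with a mean of at least 10 CPM, those that fell most were Nyap2, Cttnbp2, Irf8 and Gpd2, and the genes that fell also held Hspa8, the constitutive cytosolic Hsp70, with its partner Dnajb1. The genes that rose held the ER chaperones Hsp90b1 and Canx and 8 genes of chromosome X. Cumulus cells held at least 10 times the level for 6 of the genes that rose (18.8%), against 11.5% of all genes tested. Most changes were small, with a median size of 0.61 on the log2 scale, and 34 of the 72 genes changed by less than 1.5-fold while 18 changed by 2-fold or more. For 58 of the 72 genes, no mouse of either age lay within the range of the other age, as compared with 1.97% of all genes tested. The genes were called on these same mice, so this count describes them and is no further support. Of the 72 genes, 58 were protein coding, 5 were long intergenic noncoding RNAs, 3 were processed pseudogenes and 3 were annotated as miRNAs.

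The number of calls and the share of increases depended on the fit. DESeq2 called 192 genes, 119 higher and 73 lower, and 67 of the 72 genes were among them. With the cumulus marker level of each mouse as a second covariate 8 genes were called. Of these, Nyap2, Sirpb1c, Hspa8, Helz, Gabrq and Xlr3c were among the 72. The cumulus marker level itself differed between the ages, so this fit cannot tell it apart from age. The cause of the fewer calls was not tested. With the mitochondrially encoded share as the second covariate, 166 genes were called. Leaving out 1 mouse at a time gave 23 genes without 14mo40, 31 without 14mo39, 36 without 2mo34, 39 without 2mo35, 40 without 2mo1, 45 without 14mo37 and at most 92, without 2mo36. Plate B1 alone, with 3 mice at each age, gave 177 genes, and plate B2 alone, with 2 at each age, gave 0 genes by edgeR although 1672 had an unadjusted p under 0.05.

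**Figure D1:**
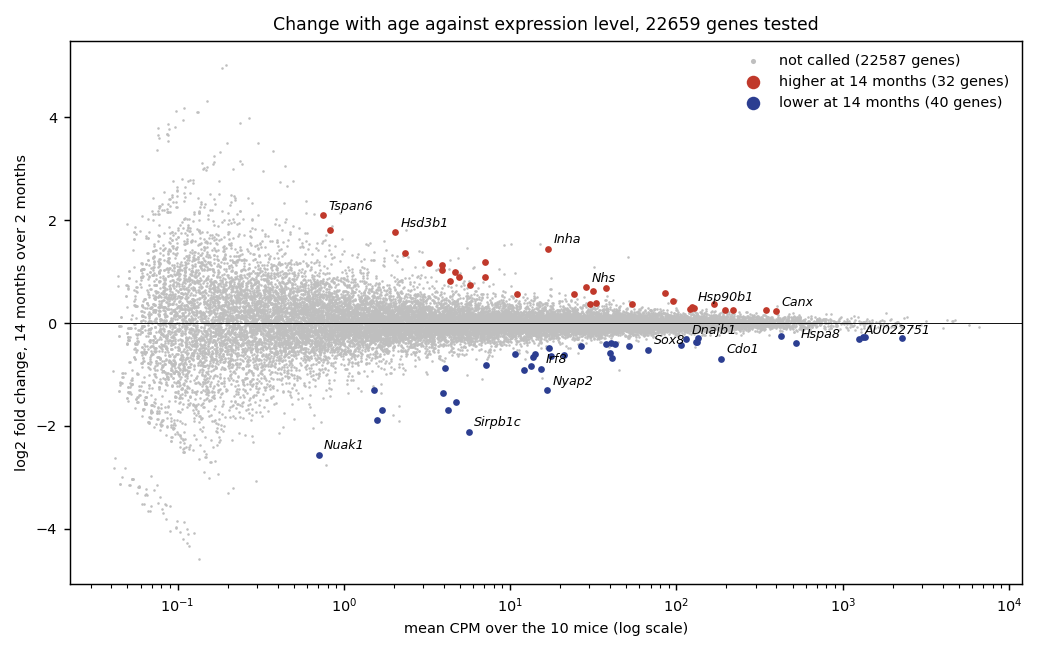
Log2 fold change of each of the 22659 genes (14 over 2 months, y axis) against its mean CPM over the 10 mice (x axis, log scale), with the 32 genes higher at 14 months in red and the 40 lower in blue. Called genes of high abundance such as Canx and Hspa8 lie close to 0, and the spread of uncalled genes widens below 1 CPM.

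Among the genes lower at 14 months, Nyap2 had the smallest adjusted p. It encodes a phosphoprotein adaptor that binds phosphoinositide 3-kinase in neurons, and lies on chr1:81076950-81341764 (GRCm38, plus strand). Its level was 26.7, 22.9, 25.6, 22.6 and 21.1 CPM in the 5 mice at 2 months and 9.11, 8.32, 11.3, 8.69 and 10.7 CPM in those at 14 months. Every mouse at 14 months was thus far below every mouse at 2 months, and the log2 fold change was -1.30 ± 0.10 (SE, adjusted p = 8.54e-06). In single oocytes the range was 18.4 to 42.6 CPM (median 23.2) at 2 months and 1.99 to 17.6 CPM (median 10) at 14 months, so that not even the ranges of individual oocytes met. The change was -1.40 on plate B1 and -1.18 on plate B2, and -1.16 with the cumulus level as a covariate.

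The Sirpb1 genes, which encode immunoglobulin-type receptors known from myeloid cells, lie side by side on chromosome 3. Sirpb1c was at 9.68, 8, 9.37, 8.65 and 10.2 CPM at 2 months and at 1.78, 2.77, 1.58, 0.858 and 3.66 CPM at 14 months. The groups did not overlap, and the level was 4.33-fold higher at 2 months (log2 fold change -2.12 ± 0.23, adjusted p = 0.000511). Sirpb1b and Sirpb1a fell by 1.69 ± 0.20 and 1.53 ± 0.20 on the log2 scale (adjusted p = 0.00088 and 0.00212). Sirpb1b is 98.7% identical to Sirpb1c over 1551 bases and 96.9% identical to Sirpb1a over 1918 bases, so shared reads can move between these genes and how much each changed is uncertain. These 3 genes, like others below that are named as such, were chosen after their values were seen.

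Irf8, Cd200 and Il1r2, known from immune cells, fell as well. Irf8, a transcription factor of the interferon response and of myeloid development, was at 24.5, 16.7, 22.4, 19.8 and 15.7 CPM at 2 months and at 11.1, 12.8, 10.2, 9.98 and 9.48 CPM at 14 months (log2 fold change -0.89 ± 0.12, adjusted p = 0.00212). Its mice did not overlap between the ages. Cd200, a surface glycoprotein that restrains myeloid cells through its receptor, fell by 0.64 ± 0.12 on the log2 scale from 20.5 to 23.1 CPM per mouse to 10.7 to 18.2 CPM. Il1r2, the decoy receptor of interleukin 1, which was chosen after its values were seen, fell by 0.48 ± 0.09 and its mice did not overlap either. Of the 11 blood cell markers 4 had enough counts to be tested and none was called. Of these 4 markers, 3 had a log2 fold change above 0 and 1 below 0. C1qb, a complement gene of macrophages, was at 6.74 to 10.2 CPM per mouse at 2 months and at 8.72 to 13.5 CPM at 14 months. Cd68, the marker below 0, was at 0.774 to 1.45 CPM and 0 to 1.18 CPM (log2 fold change -0.50). The part of blood cell RNA in these levels was not tested.

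Several genes of metabolism were lower at 14 months. Cdo1, the dioxygenase that oxidizes cysteine on the way to taurine, was among the more abundant, at 221, 256, 203, 240 and 222 CPM at 2 months and 155, 219, 111, 140 and 90.9 CPM at 14 months. Mouse 14mo38 lay within the range of the younger mice and the other 4 lay below it (log2 fold change -0.69 ± 0.14, adjusted p = 0.047). Gpd2, the mitochondrial glycerol 3-phosphate dehydrogenase, fell by 0.84 ± 0.15, with a difference of -1.28 on plate B1 and -0.36 on plate B2. Sgms2, a sphingomyelin synthase, fell by 0.67 ± 0.13 without overlap between the ages. Ckb, the brain-type creatine kinase, which was chosen after its values were seen, was at 137 to 164 CPM per mouse at 2 months and 114 to 129 CPM at 14 months.

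The remaining leading decreases were in genes of diverse roles. Cttnbp2, a cortactin-binding protein known from dendritic spines, fell by 0.91 ± 0.14 from 13.1 to 17.8 CPM per mouse to 6.22 to 10.1 CPM. Helz, an RNA helicase, was at 49.4, 36.4, 62.9, 53.6 and 49.4 CPM at 2 months and at 38.8, 37.1, 29.1, 30.2 and 24.8 CPM at 14 months. Mouse 2mo2 lay below 2 of the older mice (log2 fold change -0.67 ± 0.13, adjusted p = 0.0298), and the change was -1.10 with the cumulus level as a covariate. Commd10, of the family of COMM domain proteins, and Rsrp1, an arginine- and serine-rich protein, both fell by 0.60 ± 0.12 and did not overlap between the ages. The transcript Gm45410, whose biotype is unsettled and 95.9% identical to Gm37724 over 1080 bases, fell by 0.62 ± 0.10. Rsrp1 is the only decreased gene with at least 10 times the level in cumulus cells.

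Among decreased genes chosen after their values were seen, the transcription factor Sox8 had a narrow spread at 2 months. Its 5 mice at 2 months were at 78.7, 82.6, 83.6, 78.2 and 78.8 CPM and those at 14 months at 57.7, 45.7, 53, 61.9 and 59.9 CPM (log2 fold change -0.52 ± 0.07, adjusted p = 0.00212). AU022751, on chromosome X, was at 1257 to 1518 CPM per mouse at 2 months and at 988 to 1238 CPM at 14 months (log2 fold change -0.32 ± 0.06). Abcc4, a pump that exports cyclic nucleotides, fell by 0.58 ± 0.12, and Obox5, a homeobox gene of oocytes, by 0.25 ± 0.05, with overlapping mice in both. Obox5 is 94.1% identical to Obox7 over 1306 bases, so their reads may be shared. The largest decrease by fold, that of the kinase gene Nuak1, was at low abundance, with 0.439 to 1.84 CPM per mouse at 2 months and 0 to 0.431 CPM at 14 months. Igf1os, antisense to Igf1, was at 7.52 to 10 CPM and 4.06 to 8.12 CPM, and since the reads do not mark strand it cannot be told from transcripts of the overlapping gene.

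**Figure D2:**
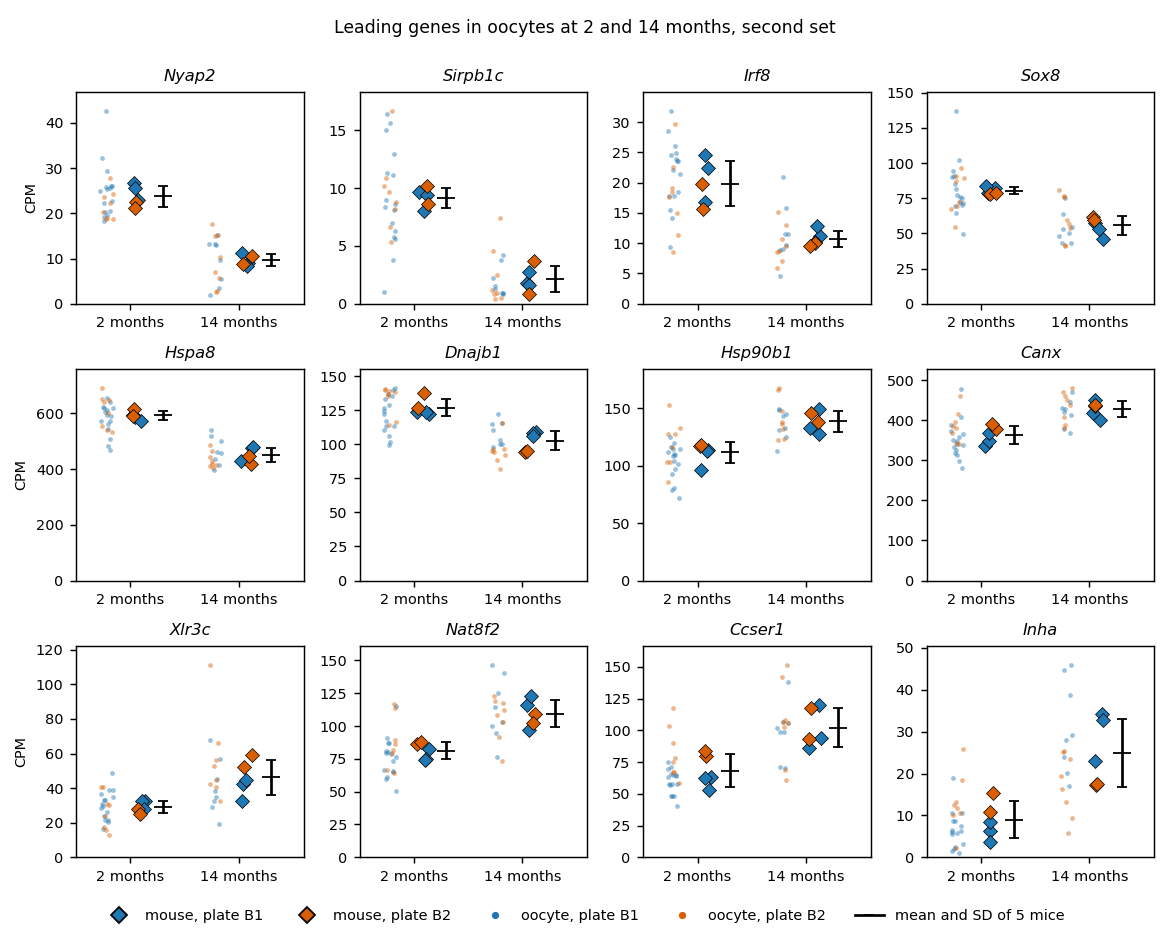
CPM (y axis, linear from 0) of 12 genes in oocytes at 2 and 14 months, with small dots for single oocytes, diamonds for mice, colors for plates and bars for the mean and SD of 5 mice. The mice of the 2 ages do not overlap except for Xlr3c, where the lowest mouse at 14 months, at 32.7 CPM, lies just under the highest at 2 months, at 32.8 CPM.

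Hspa8 and Dnajb1, a cytosolic Hsp70 and a J-domain protein that stimulates its ATPase, were the called members of the heat shock and cytosolic chaperone list, and both were lower at 14 months. Hspa8 was at 594, 587, 573, 618 and 592 CPM at 2 months and at 476, 479, 431, 420 and 449 CPM at 14 months. The groups were separated by a gap wider than the spread within either age (log2 fold change -0.40 ± 0.04, adjusted p = 0.000511). Single oocytes ranged from 470 to 691 CPM (median 598) at 2 months and from 395 to 541 CPM (median 439) at 14 months. Dnajb1 was at 124, 122, 123, 137 and 127 CPM at 2 months and at 109, 108, 106, 94.7 and 95.2 CPM at 14 months, also without overlap (log2 fold change -0.31 ± 0.06, adjusted p = 0.026). Its change was -0.19 on plate B1 and -0.48 on plate B2, as against -0.34 and -0.48 for Hspa8.

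Reads of Hspa8 are shared with near-identical copies elsewhere in the genome. The copies Gm8355 on chr10:14745362-14747302 (minus strand) and Gm6210 on chr6:75296118-75298059 (minus strand), both GRCm38, fell by 0.42 ± 0.05 and 0.44 ± 0.06 on the log2 scale. They are 98.7% and 98.6% identical to Hspa8 over 1941 and 1942 bases. Gm15459 and Gm26825, chosen after their values were seen, overlap each other on opposite strands of chromosome 5, are 99.7% and 99.6% identical to Hspa8 and both fell by 0.37 ± 0.05. Since the authors shared multi-mapped reads between genes, these 5 decreases are not independent of each other and the copies' own transcription is uncertain.

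The rest of the heat shock list held no further call. Of its 25 genes tested 16 had a log2 fold change below 0 and the median was -0.03, as compared with 0.00 over all genes tested. Hsf2, a heat shock transcription factor, was at 5.57 ± 1.48 CPM at 2 months and 7.8 ± 0.841 CPM at 14 months (SD, n = 5 mice, adjusted p = 0.288). The list's median was 0.00 on plate B1 and -0.12 on plate B2.

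In the ER, Hsp90b1, the Hsp90 of the lumen (also called GRP94), and Canx, the membrane chaperone calnexin that binds sugar chains of new glycoproteins, were higher at 14 months. Hsp90b1 was at 113, 113, 95.9, 117 and 118 CPM at 2 months and at 133, 149, 127, 145 and 138 CPM at 14 months. All older mice were above all younger ones (log2 fold change 0.32 ± 0.06, adjusted p = 0.0275). Canx was at 336, 348, 368, 379 and 391 CPM at 2 months and at 401, 451, 419, 436 and 438 CPM at 14 months, again without overlap (log2 fold change 0.23 ± 0.04, adjusted p = 0.0275). The cumulus libraries held 624 CPM of Hsp90b1 and 634 CPM of Canx at 2 months. With the cumulus marker level as a covariate the changes were 0.32 and 0.18, and neither was called.

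Of the 26 genes of the integrated and ER stress list, these 2 were called and 19 had a log2 fold change above 0, with a median of 0.06 as compared with 0.00 over all genes. Creb3l2, a membrane-bound transcription factor that is cut free when the ER is stressed, was at 3.1 to 4.49 CPM per mouse at 2 months and at 5.04 to 8.11 CPM at 14 months without overlap (log2 fold change 0.71 ± 0.16, adjusted p = 0.0718). Cumulus libraries held 599 CPM of Creb3l2 at 2 months and 472 CPM at 14 months. Its change in oocytes was 0.92 on plate B1, 0.40 on plate B2 and 0.41 with the cumulus marker level as a covariate. The part of cumulus RNA in this change was not tested. Hspa5, the Hsp70 of the ER, and its partner Dnajb11 were chosen after their values were seen, as were the lectin chaperone Calr and the disulfide isomerase Pdia4. Their log2 fold changes were 0.18 ± 0.13 for Hspa5, 0.12 ± 0.07 for Dnajb11, 0.12 ± 0.06 for Calr and 0.14 ± 0.05 for Pdia4, all with overlapping mice and none called. The Hspa5 difference was 0.37 on plate B1 and -0.11 on plate B2.

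The promoters of Hsp90b1, Canx and Hspa5 are given here since these genes share a known control sequence, the ER stress response element, and yet only the first and the second were called. Each sequence is the 250 bases before the RefSeq start of transcription on GRCm38.p6, read 5′ to 3′ on the strand of the gene, from chr10:86705445-86705694 (minus strand), chr11:50325674-50325923 (minus strand) and chr2:34771840-34772089 (plus strand). Capitals mark each match to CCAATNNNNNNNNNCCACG, searched on both strands.
Hsp90b1: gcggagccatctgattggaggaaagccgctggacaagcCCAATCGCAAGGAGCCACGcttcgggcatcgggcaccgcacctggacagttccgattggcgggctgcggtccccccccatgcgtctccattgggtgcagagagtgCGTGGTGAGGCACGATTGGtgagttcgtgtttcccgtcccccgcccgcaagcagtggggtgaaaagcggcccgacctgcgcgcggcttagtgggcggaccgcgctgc
Canx: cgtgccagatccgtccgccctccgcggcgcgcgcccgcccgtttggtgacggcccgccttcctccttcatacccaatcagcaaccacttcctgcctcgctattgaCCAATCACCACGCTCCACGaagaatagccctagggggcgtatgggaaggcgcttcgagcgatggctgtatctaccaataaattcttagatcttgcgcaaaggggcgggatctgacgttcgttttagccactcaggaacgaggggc
Hspa5: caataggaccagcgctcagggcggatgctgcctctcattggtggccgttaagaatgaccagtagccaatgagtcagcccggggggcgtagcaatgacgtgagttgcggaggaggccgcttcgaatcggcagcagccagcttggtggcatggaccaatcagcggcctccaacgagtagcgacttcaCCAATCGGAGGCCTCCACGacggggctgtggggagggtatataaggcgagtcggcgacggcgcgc

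Hsp90b1 held 2 such matches, at 212 to 194 bases before the start and, in reverse, at 107 to 89 bases before it. The match in Canx lay 145 to 127 bases and that in Hspa5 65 to 47 bases before the start. Over all 32851 RefSeq promoters of this length 37 held the sequence (0.113%), and 6 of the 24 genes of the ER stress list with a RefSeq promoter did (Calr, Canx, Hsp90b1, Hspa5, Pdia6 and Syvn1). Of 52 called genes with a promoter, 4 held it (Canx, Hsp90b1, Tdrd9 and Xlr3c). The promoter of Hspa8 was not used here.

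On chromosome X, 8 of 889 genes tested were called higher (0.9%), as compared with 0.141% of all genes, and 1 was called lower. The 8 genes made up 25% of all genes that rose, while 3.92% of the genes tested lie on this chromosome, and 4 of the 8 are near-identical copies of the Xlr family. The median log2 fold change over all genes of this chromosome was 0.05, as compared with 0.00 over all genes. Nhs, the gene of Nance-Horan syndrome, which shapes the actin cytoskeleton, was at 24.5, 21.7, 19.4, 21.3 and 22.5 CPM at 2 months and at 44.6, 31.8, 36.8, 33.9 and 29 CPM at 14 months (log2 fold change 0.70 ± 0.10, adjusted p = 0.00452). Its groups did not overlap. Gabrq, a subunit of the GABA-A receptor, was at 33.5, 27.8, 25.2, 21.4 and 18 CPM at 2 months and at 36.3, 32.4, 44.5, 40.8 and 36.4 CPM at 14 months. Mouse 14mo38 lay just under the highest younger mouse (log2 fold change 0.63 ± 0.12, adjusted p = 0.0275).

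The Xlr genes, a multicopy family of chromosome X that was first described in lymphocytes, gave 4 of these 8 calls. Xlr3c was at 32.8, 32.4, 28.2, 27.7 and 24.9 CPM at 2 months and at 42.6, 32.7, 44.9, 59 and 52.1 CPM at 14 months. The older mice of plate B2 were the highest (log2 fold change 0.67 ± 0.12, adjusted p = 0.0211), and the change was 0.38 on plate B1 and 1.07 on plate B2. Xlr5a, Xlr5b and Xlr5c, chosen after their values were seen, rose by 1.03 ± 0.21, 1.13 ± 0.20 and 0.89 ± 0.17, at levels of at most 10.5 CPM in any mouse. Xlr3b and Xlr3a, also chosen after their values were seen, had changes of 0.45 ± 0.10 and 0.27 ± 0.10 and were not called. Xlr3c is 99.1% identical to Xlr3b over 1564 bases and Xlr5a is 99.3% identical to Xlr5b over 1652 bases, so the counts of single members are uncertain. Rhox1, a reproductive homeobox gene chosen in the same way, rose by 0.81 ± 0.15 without overlap, from 2.36 to 3.52 CPM to 5.19 to 6.12 CPM.

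Other genes that rose at an abundance above 10 CPM included some that are nearly absent from cumulus cells, where Nat8f2 was at 0.0931 CPM and Fbxw13 and Ccser1 had too few counts to be tested. Fbxw13, an F-box protein gene with several similar neighbors, was at 153, 143, 148, 147 and 148 CPM at 2 months and at 189, 168, 210, 195 and 190 CPM at 14 months (log2 fold change 0.37 ± 0.05, adjusted p = 0.00452). Nat8f2, of the N-acetyltransferase 8 family, rose by 0.43 ± 0.07 from 74 to 88 CPM per mouse to 97.1 to 123 CPM. Ccser1, a coiled-coil serine-rich protein gene, rose by 0.58 ± 0.10 from 52.9 to 83.9 CPM per mouse to 86 to 120 CPM. None of these 3 genes overlapped between the ages. Nat8f2 is 93.1% identical to Nat8f4 over 1491 bases and Fbxw13 91.8% identical to Fbxw20 over 428 bases, which leaves the source of some of their reads uncertain.

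Germline and housekeeping genes were also among those that rose. Tdrd9, a helicase of the piRNA pathway that silences transposons, was at 25.7 to 33 CPM per mouse at 2 months and 34.1 to 38.6 CPM at 14 months (log2 fold change 0.39 ± 0.08, adjusted p = 0.0491). Ercc4, the nuclease XPF of nucleotide excision repair, was the called gene among 47 of the DNA repair list and rose by 0.36 ± 0.08, with 1 older mouse, at 29.8 CPM, below the highest younger mouse, at 31 CPM. Ogfrl1, related to the opioid growth factor receptor, rose by 0.57 ± 0.11 without overlap. The noncoding RNA Gm47923 rose by 0.57 ± 0.09 without overlap. Chosen after their values were seen, Iars (isoleucyl-tRNA synthetase), Myh9 (nonmuscle myosin heavy chain), Rnf213 (a ubiquitin ligase) and Pphln1 (periphilin, which takes part in the silencing of retroelements) rose by 0.25 to 0.28 on the log2 scale without overlap between the ages.

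A last group of increases was in genes with at least 10 times the level in cumulus cells, 6 of the 32 genes that rose (18.8%) as compared with 11.5% of all genes. At 3 times the level there were 8 of the 32 genes that rose and 13 of the 40 that fell, against 5667 of 22659 tested. An excess among the genes that rose was thus not seen at that level, and the share at 10 times the level was not tested against its background. Inha, the alpha subunit of inhibin that granulosa cells secrete, was at 6.32, 3.76, 8.51, 10.8 and 15.4 CPM at 2 months and at 34.2, 32.7, 23, 17.2 and 17.6 CPM at 14 months (log2 fold change 1.44 ± 0.26, adjusted p = 0.0258). The groups did not overlap, and the change was 2.21 on plate B1 and 0.40 on plate B2. Hsd3b1, which makes progesterone and was the called gene of the steroid synthesis list, was at 0.258 to 1.35 CPM per mouse at 2 months and at 1.83 to 5.19 CPM at 14 months (log2 fold change 1.77 ± 0.34). With the summed level of the cumulus markers as a covariate the changes were 0.24 for Inha, which is itself a member of that sum, and 1.54 for Hsd3b1, and neither was called. Of the 12 cumulus and granulosa markers tested only Inha was called, 10 had a log2 fold change above 0 and the median was 0.71, with 1.78 on plate B1 and 0.14 on plate B2. The gap junction gene Gja1 and the inhibin subunit gene Inhbb had changes of 1.54 ± 0.37 and 1.54 ± 0.36 (adjusted p = 0.0886 and 0.0857). Akr1c14, Ank2, Impad1 and Tspan6, chosen after their values were seen, were at most 6.83 CPM in any mouse. The part of cumulus RNA in these increases was not tested beyond these fits.

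Genes of ribosomal RNA and small RNAs, chosen after their values were seen, were among those lower at 14 months. Gm42418, AY036118 and CT010467.1 overlap on chromosome 17, share identical stretches and include 1 gene annotated as ribosomal RNA. Gm42418 was at 1362 to 1594 CPM per mouse at 2 months and 1104 to 1345 CPM at 14 months (log2 fold change -0.27 ± 0.04, adjusted p = 0.0116). The miRNA annotations Gm23935, Gm24187 and Gm24270 span 57 bases each and resemble one another at 98.2% identity or more, and fell by 0.38 to 0.40. Their reads cannot be told apart, and reads of RamDA-seq libraries come from long RNA as well, so these values do not measure a mature miRNA.

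Lists of genes for oocyte functions mostly held no called member, which is near the share of 0.318% called over all genes and so is no result about these lists. No gene of the zona pellucida list (9 tested), the oocyte-secreted growth factors (4), the subcortical maternal complex (15), cohesin and its loaders and protectors (21), the spindle checkpoint (15), the kinetochore (36) or meiotic arrest and resumption (29) was called, and the medians of these lists lay between -0.05 and 0.02. Members with the smallest p included Aurkc, the meiotic chromosomal passenger kinase, at 264 ± 14 CPM at 2 months and 225 ± 9.87 CPM at 14 months without overlap (SD, n = 5 mice, adjusted p = 0.0537). Khdc3, of the subcortical maternal complex, had a log2 fold change of -0.22 ± 0.05 and Figla, a transcription factor of oocytes, -0.33 ± 0.09. In the cohesin list, Esco2, which acetylates cohesin, had a change of 0.16 and Smc3, a core subunit, of -0.12. Mos, which drives the MAP kinase pathway of meiosis, had a change of -0.12 and Ccnb2, a B-type cyclin, of 0.18, and Cdc20, the activator of the anaphase-promoting complex, of -0.18.

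A few lists without a call were one-sided. The log2 fold change was below 0 in 72 of 82 cytoplasmic ribosomal protein genes (median -0.10), 66 of 78 mitochondrial ribosomal protein genes (median -0.09), 34 of 37 proteasome genes (median -0.08), 56 of 78 nuclear genes of the respiratory chain (median -0.08) and 47 of 60 core histone genes (median -0.13). Over all genes with a mean of at least 10 CPM the median was -0.01. The summed level of the cytoplasmic ribosomal protein genes was 4864 ± 265 CPM at 2 months and 4524 ± 163 CPM at 14 months (SD, n = 5 mice). The 13 mitochondrially encoded protein genes were all above 0, with a median of 0.24 that was 0.36 on plate B1 and 0.10 on plate B2. Of these genes, mt-Cytb, mt-Nd1 and mt-Nd4 had 14.4, 25.5 and 16.2 times the oocyte level in cumulus cells. With the cumulus marker level as a covariate the changes of these 3 genes were 0.04, 0.25 and 0.04, against 0.24, 0.45 and 0.29 without it. That level itself differed between the ages, and the part of cumulus RNA in these changes was not tested. Genes of a list share their mice, so these counts describe the list and are no test of it.

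**Figure D3:**
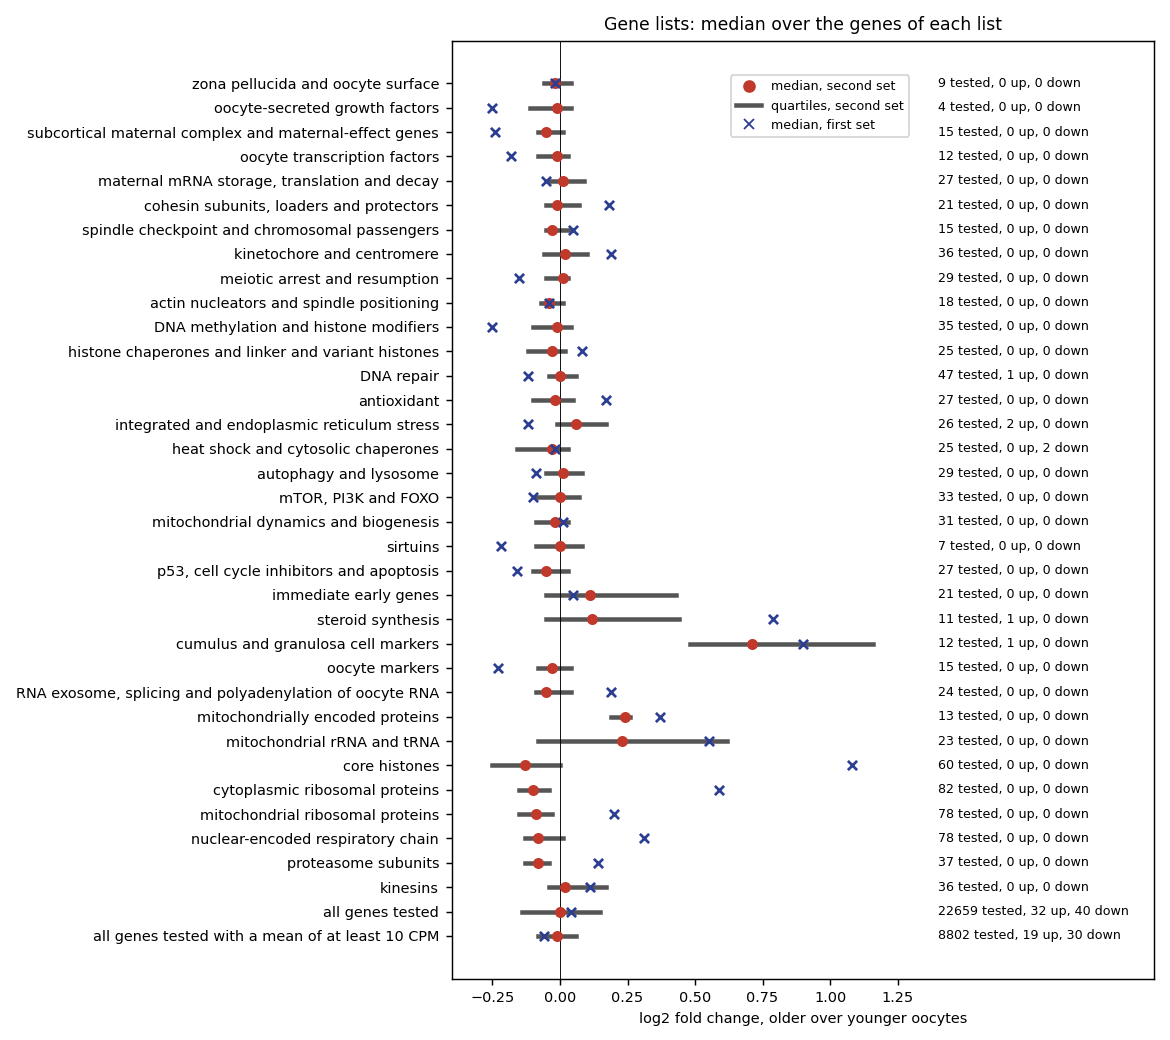
Log2 fold change (x axis, older over younger oocytes) of the genes in each list, with a red dot for the median and a bar for the quartiles in the second set, and a cross for the median in the first set. The cumulus marker list lies highest in the second set, at 0.71, and the core histone and ribosomal protein lists have medians on opposite sides of 0 in the 2 sets.

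Over all genes, the ages overlapped in principal component analysis. PC1, with 5.76% of the variance of log10(RPKM + 1), had mean scores per mouse of -2.46, -1.15, -3.74, 1.09 and 1.63 at 2 months and 3.18, 3.30, 4.85, 1.55 and -0.457 at 14 months. The mice of plate B2 lay together in the middle whatever their age. The difference of 3.41 had p = 0.0397 (two-sided exact permutation test over mice, adjusted p = 0.0794 over 6 measures), and that of 3.05 on PC2, with 4.37% of the variance, had p = 0.0873 by the same exact test.

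Oocytes of the same mouse were compared with each other since the study reported more heterogeneity among oocytes late in reproductive life. Mice 14mo38 and 14mo39 had 2 oocytes each, and so 1 pair each. The mean of 1 minus Pearson's r over the pairs of oocytes of a mouse was 0.0293, 0.0282, 0.0302, 0.0301 and 0.028 at 2 months and 0.027, 0.0266, 0.0261, 0.0257 and 0.0277 at 14 months. Every older mouse was lower than every younger one (p = 0.00794, the smallest value that this exact permutation test can give, adjusted p = 0.0476). The study's text states no measure of heterogeneity, within a mouse or over an age, so this direction cannot be set against its report. With counts thinned to the lowest total of 1718622, the difference was smaller, at -0.000892 in RPKM (p = 0.413, exact permutation test). The number of genes detected at that total was 17896 ± 105 at 2 months and 18076 ± 148 at 14 months (SD, n = 5 mice, exact permutation p = 0.0635). The mitochondrially encoded share of counts was 0.547% ± 0.124 and 0.536% ± 0.0759 (exact permutation p = 0.754) and was higher on plate B2 at both ages.

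The first set of the series held oocytes of young and old mice of the same nominal ages and was used for values only, since it has 2 mouse labels per age, of which Old1_2 appears to name more than 1 mouse. Of the 72 genes 57 had a change in the same direction there (79.2%), as compared with 52.2% of 21768 genes with a value in both sets. All 12 cumulus and granulosa markers with a value in the first set were above 0 there, with a median of 0.90. Among them Inha was at 112 and 66 CPM in Young1 and Young2 and at 244 and 91.2 CPM in Old1_2 and Old3. Its mice in the second set lay at 3.76 to 34.2 CPM. The part of cumulus RNA in the shared directions was not tested. For the genes that rose the first set gave a median of 0.34 and the second 0.65, and for those that fell the medians were -0.42 and -0.60. Nyap2 was at 17.7 and 21.3 CPM in Young1 and Young2 and at 7.74 and 9.56 CPM in Old1_2 and Old3, and Sirpb1c was at 6.51 and 8.13 CPM against 2.21 and 1.32 CPM. Both were again lower in each old label than in each young one, as were Irf8 (22.4 and 22.3 against 9.05 and 14.3 CPM) and Sox8 (91.7 and 78 against 47.1 and 67.6 CPM).

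The cytosolic and the ER chaperones had unlike values in the first set. Hspa8 was at 513 and 553 CPM in the young and 494 and 556 CPM in the old labels of the first set (log2 fold change -0.02), and Dnajb1 at 122 and 130 against 121 and 125 CPM (-0.03). Hsp90b1 was at 122 and 121 against 161 and 159 CPM (0.40) and Canx at 357 and 347 against 537 and 437 CPM (0.47). The decrease of the cytosolic pair was thus not seen in these 4 labels, whereas the ER pair was higher in the old labels of both sets. The integrated and ER stress list as a whole was not. Of its 26 genes, 11 were above 0 and 15 below 0 in the first set, with a median of -0.12, against 0.06 in the second. Called genes of opposite sign in the first set included Nhs and Myh9, with -0.42 and -0.58. The miRNA annotations Gm23935, Gm24187 and Gm24270, which fell in the second set, had changes of 0.49, 0.50 and 0.50 in the first. Among the one-sided lists, 81 of 82 cytoplasmic ribosomal protein genes and 60 of 60 core histone genes were above 0 in the first set, with medians of 0.59 and 1.08, against -0.10 and -0.13 in the second. The difference between the sets was not tested.

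**Figure D4:**
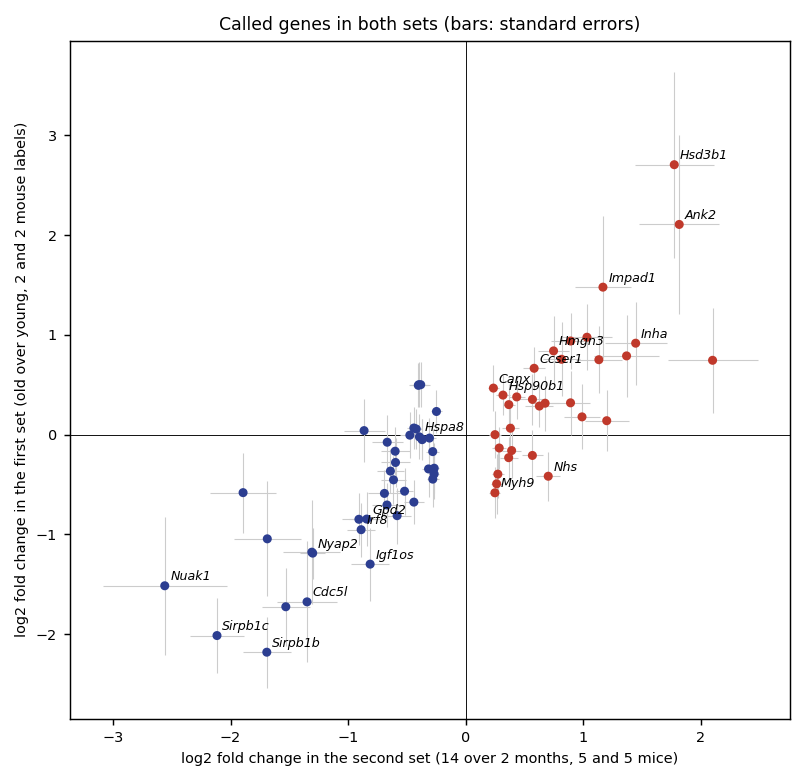
Log2 fold change of the 72 called genes in the second set (x axis, 14 over 2 months, 5 and 5 mice) against that in the first set (y axis, old over young, 2 and 2 mouse labels), with standard errors as bars, red for genes higher and blue for genes lower at 14 months in the second set. Of the genes, 57 lie in the quadrants of equal sign and Hspa8 lies at -0.02 on the y axis.

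Oocytes of the second set at 4 months (39 oocytes, 8 mice) and 9 months (16 oocytes, 4 mice) showed where the called genes stood between the 2 ages. The genes were chosen at 2 and 14 months, so the ends of the order are given by that choice. The median over mice lay between those of 2 and 14 months at 4 months for 30 of 32 genes that rose and 36 of 40 that fell, and at 9 months for 30 and 37. The 4 medians stood in the order of age for 26 genes that rose and 24 that fell. Over all genes, the medians rose in that order for 5.53% and fell in it for 6.21%, without a choice by their ends. No share over all genes was taken for medians between the 2 ages, so those counts have no background here. Sirpb1c had medians of 7.42 CPM at 4 months and 3.78 CPM at 9 months, and all 4 mice at 9 months, at 2.63 to 3.97 CPM, were below all mice at 2 and 4 months.

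The levels at 4 and 9 months are given for some of these genes. Nyap2 was at 15.3 to 25.4 CPM (median 20.4) at 4 months and at 13.8 to 24.7 CPM (median 19.7) at 9 months, above every mouse at 14 months. Hspa8 was at 462 to 610 CPM (median 544) at 4 months and at 463 to 516 CPM (median 480) at 9 months, so that at 9 months it was below all mice of 2 months and reached into the range of 14 months. Hsp90b1 had reached 140 to 154 CPM (median 141) by 9 months, against 127 to 149 CPM at 14 months. The ages shared no mice.

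**Figure D5:**
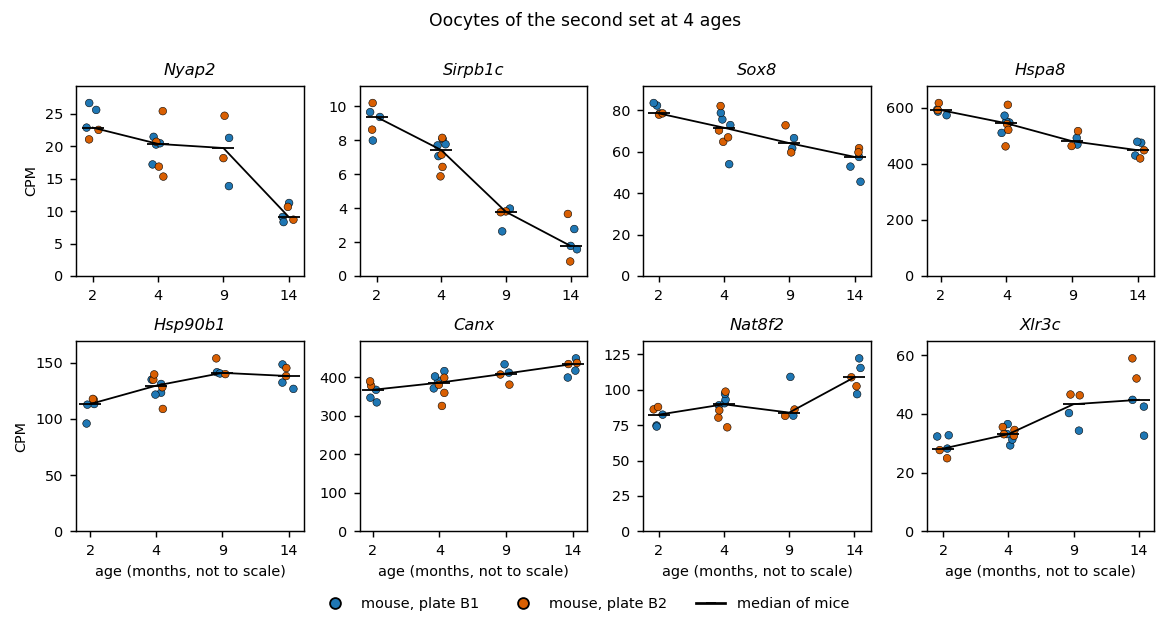
CPM (y axis, linear from 0) of 8 called genes in oocytes by age in months (2, 4, 9 and 14 on the x axis, evenly spaced and not to scale), with 1 dot per mouse, colored by plate and a line through the medians. Nyap2 stays near 20 CPM until 9 months and lies at 8.32 to 11.3 CPM at 14 months, while Sirpb1c falls at each step.

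Cumulus cells of the same complexes were tested in the same way. In cumulus libraries of these 10 mice 57 of 22862 genes were called between 2 and 14 months (0.249%), and 1 of them, Ank2, was among the 72 oocyte genes. The oocyte genes that rose had a median log2 fold change of 0.05 in cumulus cells (23 genes with a value) and those that fell one of -0.16 (31 genes). The change in oocytes differed from that in cumulus cells, by the interaction of age and cell type, for 68 of 28878 genes (0.235%), and 7 of these were among the 72. Hspa8 changed by -0.16 in cumulus cells (adjusted p = 0.634) and was not among the 7.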

How the data were processed

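RamDA-seq libraries of single oocytes were taken as the authors deposited them. After adaptor trimming (Fastq-mcf), the authors aligned reads to the GRCm38 genome by HISAT2 2.0.5, and featureCounts 1.5.1 assigned them, multi-mapped reads included, to genes of GENCODE vM15. The deposited estimated counts were not whole for 36.8% of nonzero values in these 40 oocytes, although plain counts had been assumed. For the fits they were rounded in each library and then summed per mouse. The filter on low counts also used the rounded values. The authors also deposited RPKM values, which were used with a pseudocount of 1 for principal components and distances. Reads carry no strand or molecular identifiers, so errors do not cover duplicated reads. Symbols and coordinates came from GENCODE vM21, in which 42230 of 42349 genes were found. Near-identical genes (90% identity or more) were searched with BLAST 2.17.0 and promoters were taken from RefSeq (GRCm38.p6).

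Differences between the ages were tested by edgeR 4.0.16 under R 4.3.3 (quasi-likelihood F test after TMM scaling, plate as a covariate). Genes entered when 5 or more of the 40 libraries held a count, with Benjamini-Hochberg adjustment at 5%. CPM of genes were TMM-normalized, and summed marker levels per oocyte were not. The interaction with cumulus cells had the mouse as a block. On data simulated for this comparison over 22659 genes, 27, 48, 50 and 50 of 50 genes were recovered at 1.25, 1.5, 2 and 3-fold. There were 15 false calls over all folds, and their share of the simulated calls was not set against the 5% level. Recovery was not split by abundance, so these counts do not give it for genes with a mean under 10 CPM. Such genes made up 23 of those called between 2 and 14 months. Single measures were compared by two-sided exact permutation tests over mice (252 splits, smallest p 0.00794). Alternatives were libraries as units, limma 3.58.1, DESeq2 1.42.0, other filters, scalings and covariates, single plates and each mouse left out. Figures were drawn with matplotlib 3.10.9.

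Named genes were the 10 largest increases and decreases among called genes with a mean of at least 10 CPM and a standard symbol, the 3 largest of each among those left out by symbol, and in each gene list the 3 members with the smallest p and called members up to 6 in all, not all of which are printed. Of these, 1 gene is not reported here. Members and gene lists were chosen with earlier results of these data known.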

Additional observations from a re-analysis of the deposited data

Results flagged for a closer look

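Among 60 groups of 5 mice, those of the named genes, 1 held a mouse far from the others, where chance flags about 1 group in 20. Gm47923 was at 33.3 CPM in mouse 14mo38, and the gap to the next mouse was 0.786 of the range of the 5 mice at 14 months.

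For 68 genes, 7 of them among the 72 called in oocytes and given here, the change with age differed between oocytes and cumulus cells of the same mice (interaction in edgeR's quasi-likelihood test, Benjamini-Hochberg adjusted p over 28878 genes). The change was higher in oocytes for Inha (1.07 on the log2 scale, adjusted p = 0.0155), Impad1 (1.24, adjusted p = 0.00843), Syde1 (1.48, adjusted p = 0.00658) and Tspan6 (2.05, adjusted p = 0.0155). It was lower in oocytes for Lipo3 (-2.28, adjusted p = 0.00209), Igf1os (-2.65, adjusted p = 0.01) and Zfp982 (-1.74, adjusted p = 0.0188). Of the first 4, Inha had 2990 CPM, Impad1 291 CPM, Tspan6 34.1 CPM and Syde1 19.8 CPM in cumulus cells at 2 months. Lipo3 belongs to a family with near-identical members (95.7% to Lipo2 over 1871 bases), which leaves the source of its reads uncertain.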

How the results depend on the processing

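No paired analysis was possible because no mouse number is shared between the 2 ages. The count of 72 genes (32 higher, 40 lower) became 186 (106 and 80) with libraries as units, 199 (116 and 83) by limma voom with the mouse as a random block, 192 (119 and 73) by DESeq2, 548 (327 and 221) with no filter on low counts, 166 (106 higher) with the mitochondrially encoded share as a covariate, 8 (4 and 4) with the cumulus marker level as a covariate, 177 (129 higher) on plate B1, 0 (0 and 0) on plate B2 and 13 (1 and 12) with 2 oocytes per mouse. Without 1 mouse it was 23 to 92 (8 to 49 higher, 15 to 43 lower). Of the alternatives chosen after seeing the data, leaving out the 4 oocytes of each age with the most cumulus marker RNA gave 49 genes (20 higher), and leaving out 2mo1 and 2mo2, which sit in well column 1, gave 33 (11 and 22). None of the 72 genes reversed in any of 25 alternatives, and 1089 of 1794 values were on the same side of the threshold. The interaction count of 68 was 19 by DESeq2 and 7 with filterByExpr. Causes were not tested.

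The PC1 difference of 3.41 was 2.77 (exact permutation p = 0.0556) over genes with a mean of at least 1 RPKM and 2.74 to 4.42 without 1 mouse, and that of PC2 was 7.34 (exact permutation p = 0.0159) with a pseudocount of 0.1 and 1.32 to 3.45 without 1 mouse. The distance between oocytes of a mouse differed by -0.00094 with thinned CPM and, chosen after seeing the data, -0.000892 with thinned RPKM, and by -0.00292 to -0.00235 without 1 mouse. The CPM distance without thinning, also chosen after seeing the data, kept its direction and its side of the threshold. Genes detected differed by 380 (exact permutation p = 0.0317) without thinning and by 141 to 228 without 1 mouse, and the mitochondrially encoded share by -0.037 to 0.0237 percentage points. The cumulus marker difference was 42.3 to 59.8 CPM without 1 mouse.

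Log2 fold changes of uncalled genes that turned were, with the cumulus level as a covariate, -0.63 for Alas2, -0.04 for Astl, -0.08 for Cenpb, 0.01 for Cpsf4, -0.07 for Gdf9, -0.06 for Hsd17b1, 0.04 for Oosp1 and -0.34 for Tut4, and on plate B2 -0.26 for Alas2, -0.12 for Astl, 0.01 for Bmp6, -0.15 for Cenpb, 0.04 for Cpsf4, 0.00 for Exosc10, 0.02 for Fgf8, -0.14 for Gdf9, 0.05 for Oosp1 and -0.05 for Tut4. Zp3 was at 0.00 on plate B1, Dcn at 0.24 with 2 oocytes per mouse, Alas2 at -0.47 without the 8 oocytes of most cumulus RNA and at -0.22 (without 14mo37) to 0.92 without 1 mouse, and Gdf9 at 0.00 (without 2mo34) to 0.11.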
